A study of Mus musculus with 6 samples.

Results

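The imprinted growth genes followed here are *Mest*, *Nnat*, *Peg3*, *Plagl1*, *H19*, *Grb10*, *Cdkn1c* and *Meg3*, 8 genes chosen by symbol and compared between iWAT of Cebpa_ASKO and Cebpa_fl/fl mice. An imprinted gene is read mainly from 1 parental copy, and DNA methylation set down in the egg or the sperm marks the parental copies differently. *Mest*, *Nnat*, *Peg3* and *Plagl1* are read from the paternal copy, and *H19*, *Meg3*, *Cdkn1c* and, outside neurons, *Grb10* from the maternal copy. Many imprinted genes act on fetal and early postnatal growth, and in white fat of mice *Mest* is widely used as a marker of how fast the depot is expanding.

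Each of 6 mice gave 1 RNA-seq library from whole iWAT, the inguinal subcutaneous fat of both sides with its lymph nodes removed, 3 of them Cebpa_fl/fl and 3 Cebpa_ASKO. All were female C57BL6/J littermates, 10 weeks old, fed at will and labelled as batch 1. Both groups carry *Cebpa* alleles flanked by loxP sites, and Cebpa_ASKO mice also carry AdipoQ-Cre, a Cre recombinase driven by the adiponectin promoter, which acts in adipocytes late in their differentiation and leaves the other cells of the depot with *Cebpa*. The mice are inbred, so reads of the maternal and paternal copies could not be told apart, and all values below are of both copies together.

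Of the 8 genes, 6 had values and all 6 were among the 16069 genes tested, out of 36144 symbols in the authors' gene table. *H19* (chr7:142575529-142578143, minus strand, GRCm38) and *Meg3* (chr12:109541001-109571726, plus strand) had no transcript among the 118489 quantified, and were not analysed here. Both are annotated as long non-coding RNAs, and the tables held 8 of 9101 annotated lincRNA transcripts against all 58883 protein-coding ones. Values per library are CPM, counts relative to the library's total after TMM scaling, given for Cebpa_fl/fl replicates 1, 2 and 3 and then for Cebpa_ASKO replicates 1, 2 and 3. TPM, which also corrects for length, is used where one gene is set against another.

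The targeted gene followed the labels. *Cebpa*, the transcription factor deleted in Cebpa_ASKO adipocytes, had 448, 465 and 498 CPM in Cebpa_fl/fl and 37.7, 45.8 and 37.2 CPM in Cebpa_ASKO. Libraries held between 46237121 and 49477671 estimated counts in Cebpa_fl/fl and between 33141769 and 42243013 in Cebpa_ASKO. Every Cebpa_ASKO library was thus shallower than every control. Taken as the limit of detection, 3 counts were worth between 0.0609 and 0.0652 CPM in Cebpa_fl/fl and between 0.0713 and 0.0909 CPM in Cebpa_ASKO. Summed adipocyte markers ran from 17059 to 19942 CPM in Cebpa_fl/fl and from 6873 to 9211 CPM in Cebpa_ASKO. Of these 8 markers, 4 were called lower, *Retn*, *Adipoq*, *Cidec* and *Plin1*, beside 3.84% of all genes tested. In whole tissue, fewer cells of a type and less RNA per cell cannot be told apart.

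Promoter sequence was available in the RefSeq table (GRCm38.p6) for 6 of the 8 genes, as windows from 250 bases before to 50 bases after an annotated start. Only 3 windows are shown. They are that of *Peg3*, the gene called below, and those of the upstream and the main start of *Mest*, whose transcripts are compared below. Capitals mark a match to GGGGCCCC, the site bound by the Plagl1 protein, or to TTGCNNAA, a C/EBP core, searched on both strands.
Peg3, chr7:6730370-6730669, minus strand: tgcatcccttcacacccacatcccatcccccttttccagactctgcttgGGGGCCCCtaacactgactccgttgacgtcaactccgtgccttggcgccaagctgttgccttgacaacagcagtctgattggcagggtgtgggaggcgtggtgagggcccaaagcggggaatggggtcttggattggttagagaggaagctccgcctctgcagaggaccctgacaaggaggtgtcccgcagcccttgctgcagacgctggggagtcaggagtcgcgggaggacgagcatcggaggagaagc
Mest upstream start, chr6:30733256-30733555, plus strand: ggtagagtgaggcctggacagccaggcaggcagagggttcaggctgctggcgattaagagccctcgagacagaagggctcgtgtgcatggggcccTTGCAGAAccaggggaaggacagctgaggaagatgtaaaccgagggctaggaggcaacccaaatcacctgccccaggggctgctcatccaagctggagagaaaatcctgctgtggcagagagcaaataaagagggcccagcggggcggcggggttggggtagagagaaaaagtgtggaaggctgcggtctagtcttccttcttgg
Mest main start, chr6:30737800-30738099, plus strand: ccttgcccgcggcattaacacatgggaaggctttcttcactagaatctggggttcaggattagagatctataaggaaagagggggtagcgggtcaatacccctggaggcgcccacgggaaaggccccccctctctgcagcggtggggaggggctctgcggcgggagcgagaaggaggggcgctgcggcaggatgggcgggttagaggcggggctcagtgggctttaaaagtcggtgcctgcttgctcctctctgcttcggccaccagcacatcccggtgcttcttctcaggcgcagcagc
Among the windows of the 8 genes, GGGGCCCC was found in that of *Peg3* alone, and 1.08% of the 32851 windows in the table hold it. TTGCNNAA was found only at the upstream start of *Mest*, and 10.8% of all windows hold it. The third motif searched, TATAAA, was found only in a window of *Meg3*, against 13.6% of all windows. A match is a description of the letters in the window.

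*Peg3* was the only gene of the group called in edgeR's test. It encodes a large zinc finger protein made from the paternal copy (chr7:6703892-6730431, minus strand). *Peg3* had 95.9, 218 and 93.2 CPM in Cebpa_fl/fl and 33.3, 37.6 and 36.2 CPM in Cebpa_ASKO. Every Cebpa_ASKO library lay below every Cebpa_fl/fl library, and the 3 Cebpa_ASKO values were close to one another while control replicate 2 was higher than any other library. The means were 136 ± 71.4 CPM and 35.7 ± 2.17 CPM (SD, n = 3), so that Cebpa_ASKO iWAT kept 26.3% of the control level. The log2 fold change, Cebpa_ASKO over Cebpa_fl/fl, was -1.93 (SE 0.343, 95% interval -2.75 to -1.11), with an adjusted p of 0.0284 in edgeR's quasi-likelihood test over all genes tested. The exact permutation p was 0.1, the smallest that 3 against 3 libraries can give.

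Without control replicate 2 the log2 fold change of *Peg3* was -1.42 (SE 0.0883, adjusted p = 0.00133). The call was lost when any 1 Cebpa_ASKO library was left out, with adjusted p of 0.136, 0.114 and 0.0768 without replicates 1, 2 and 3, while the log2 fold change stayed between -1.98 and -1.88. It was also lost with the replicate number as a block (adjusted p = 0.0591) and with limma on unfiltered TPM (adjusted p = 0.135), so that *Peg3* was called in 12 of 17 ways of processing.

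*Plagl1* encodes a zinc finger transcription factor that restrains cell division and acts on other imprinted genes (chr10:13060504-13131694, plus strand). It had 13.1, 30.1 and 19.4 CPM in Cebpa_fl/fl and 12.6, 10.9 and 11.2 CPM in Cebpa_ASKO. The groups did not overlap, but the gap between the lowest control and the highest Cebpa_ASKO library was small. The log2 fold change was -0.85 (SE 0.287, 95% interval -1.54 to -0.17), which did not pass edgeR's test (adjusted p = 0.164). Of the 17 ways of processing that were compared, DESeq2 alone called it (-0.87, adjusted p = 0.0442). DESeq2 is the method that the paper names for its own comparison.

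*Mest* encodes an alpha/beta hydrolase-fold protein of the endoplasmic reticulum (chr6:30723547-30748465, plus strand). It was low in every library, with 5.77, 8.27 and 4.96 CPM in Cebpa_fl/fl and 4.91, 3.55 and 5.66 CPM in Cebpa_ASKO. The groups overlapped, and the log2 fold change of -0.43 (SE 0.266, 95% interval -1.06 to 0.21, adjusted p = 0.445 in edgeR's test) was not called. The interval still allows a fall of more than 2-fold.

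*Nnat* encodes neuronatin, a small membrane proteolipid of the endoplasmic reticulum, and lies on the plus strand (chr2:157560078-157562522) wholly within *Blcap* (chr2:157556362-157571274, minus strand). *Nnat* had 267, 533 and 191 CPM in Cebpa_fl/fl and 616, 486 and 223 CPM in Cebpa_ASKO. Both groups spanned a range of more than 2-fold and overlapped almost throughout. It was the only gene of the group with a positive log2 fold change, 0.42 (SE 0.481, 95% interval -0.73 to 1.57, adjusted p = 0.712 in edgeR's test), and it was not called.

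The growth restrainers read from the maternal copy did not pass the test. *Grb10*, whose protein binds activated insulin and IGF1 receptors and dampens their signal (chr11:11930508-12038683, minus strand), had 70.4, 141 and 70.6 CPM in Cebpa_fl/fl and 69.5, 63.9 and 82.2 CPM in Cebpa_ASKO. Control replicate 2 alone lay above the Cebpa_ASKO range. The log2 fold change of -0.38 (SE 0.286, adjusted p = 0.531 in edgeR's test) went to 0.02 (SE 0.124) without that library. *Cdkn1c*, the cyclin-dependent kinase inhibitor p57 (chr7:143458339-143461050, minus strand), had 37.1, 34.3 and 43.7 CPM in Cebpa_fl/fl and 28.5, 35.5 and 19.9 CPM in Cebpa_ASKO. Its log2 fold change was -0.46 (SE 0.212, 95% interval -0.96 to 0.05, adjusted p = 0.301 in edgeR's test), and the groups overlapped through Cebpa_ASKO replicate 2.

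**Figure D1:**
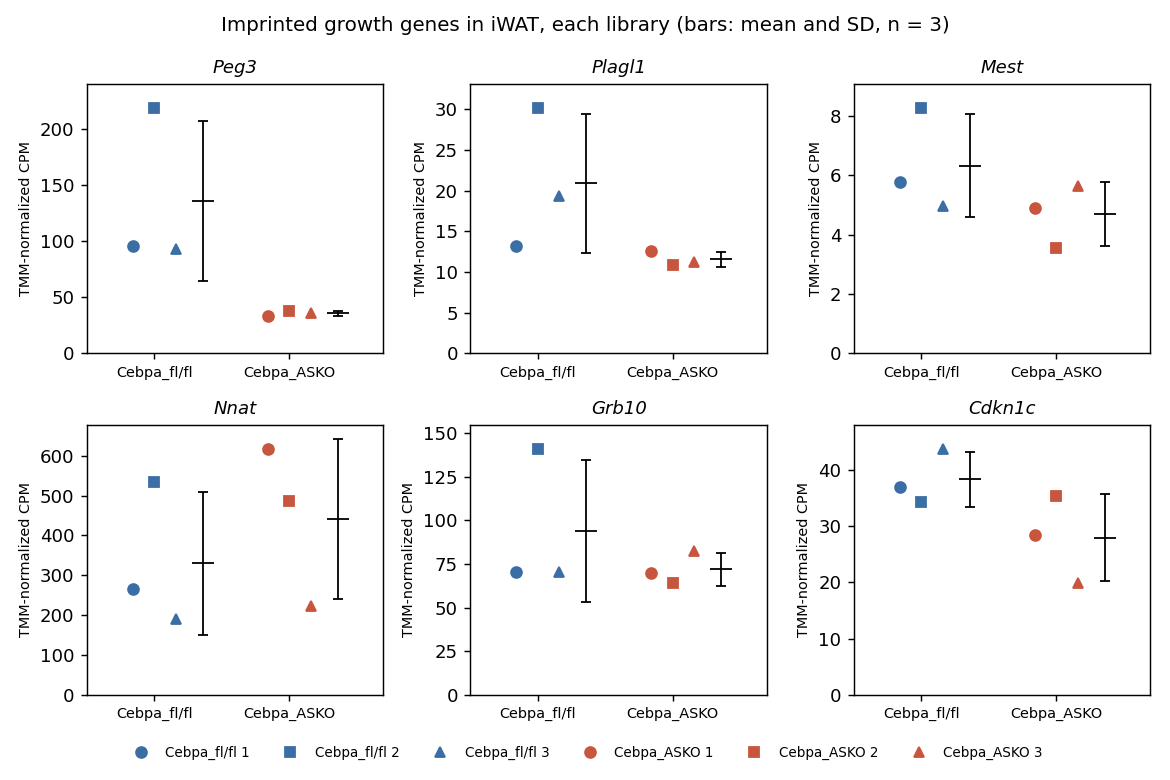
Each panel plots 1 gene, with TMM-normalized CPM from 0 on the vertical axis, 1 point per library in blue (Cebpa_fl/fl) or red (Cebpa_ASKO), and the mean and SD (n = 3) in black. The 3 Cebpa_ASKO points of *Peg3* sit between 33.3 and 37.6 CPM, under all 3 controls, and control replicate 2 (square) is the highest library for *Peg3*, *Plagl1*, *Mest* and *Grb10*.

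Counted over the group, 1 of 6 genes was called lower and 0 were called higher, beside 3.84% (lower) and 1.39% (higher) of the 16069 genes. For 2 of 6 genes, *Peg3* and *Plagl1*, all Cebpa_ASKO libraries lay below all controls, against 13.2% of all genes, and for 0 of 6 they lay above, against 12.9%. The log2 fold change was negative for 5 of 6, with a median of -0.44 beside a median of 0.02 over all genes tested.

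Per length, *Nnat* was by far the most abundant, with 309, 686 and 243 TPM in the controls. *Cdkn1c* (32.3, 37.3 and 41.1 TPM), *Grb10* (16.1, 37.1 and 17.6 TPM) and *Peg3* (12.8, 33.1 and 13.4 TPM) came next, and neighbours in this order overlapped between control libraries. *Plagl1* (4.29, 10.7 and 6.64 TPM) lay below *Peg3* in every library, and *Mest* (2.69, 4.34 and 2.46 TPM) below *Plagl1* in every library, although the control ranges of these last 2 touched. In Cebpa_ASKO the order of means was the same from *Nnat* to *Mest*, and *Peg3* there stood at 5.30 ± 0.729 TPM (SD, n = 3).

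Control replicate 2 stood apart for these genes. Its CPM was 2.33 times the mean of the other controls for *Nnat*, 2.31 times for *Peg3*, 2.00 times for *Grb10*, 1.85 times for *Plagl1* and 1.54 times for *Mest*, but 0.848 times for *Cdkn1c*. A ratio of at least 1.5 was thus seen for 5 of 6 genes, or 83.3%, against 11.3% of all genes tested and 18.2% of 33 other imprinted genes. In the same library summed markers of adipocyte progenitors reached 11403 CPM against 6438 and 6255 CPM in the other controls, with all 9 markers at 1.5 times or more. Summed macrophage markers reached 1884 CPM against 1062 and 708 CPM. The part of these cells in the levels of the imprinted genes was not tested. In Cebpa_ASKO the progenitor markers summed to between 7009 and 9314 CPM, above control replicates 1 and 3 and below control replicate 2.

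**Figure D2:**
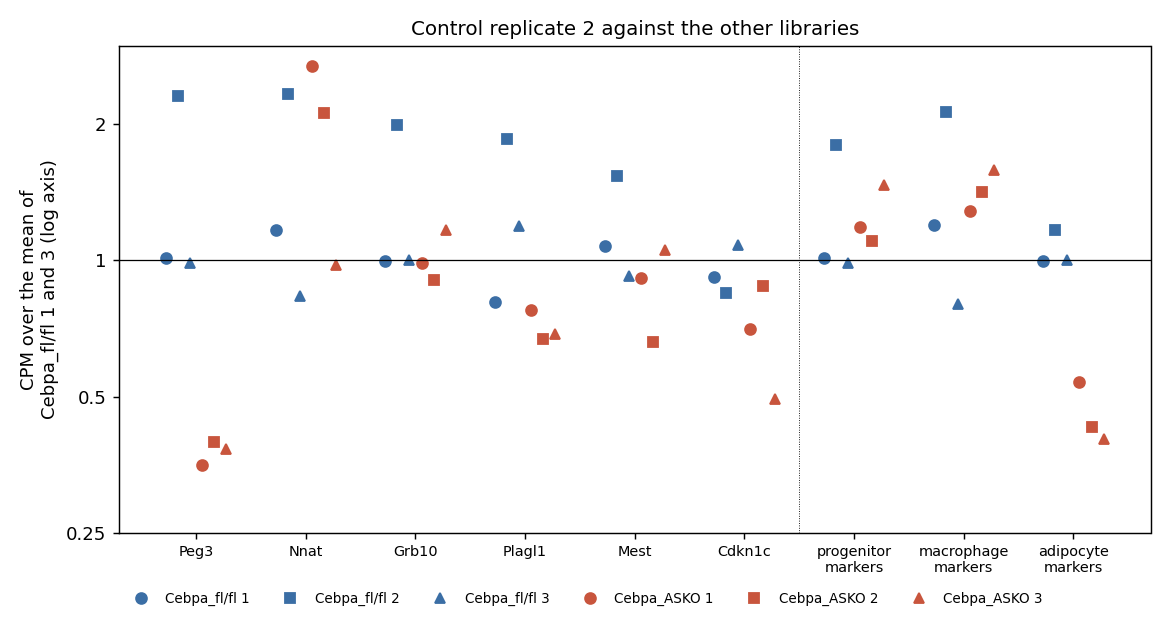
For 6 genes and 3 sums of cell type markers, the vertical axis (log scale) gives each library's CPM over the mean of Cebpa_fl/fl replicates 1 and 3, with 1 symbol per library. Control replicate 2 (blue square) lies at 1.54 to 2.33 for 5 of the 6 genes and is also high for progenitor and macrophage markers, and the 3 red points of *Peg3* lie together under all 3 controls.

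Summed markers of some other cell types also lay apart between the groups, while those of others overlapped. Summed skeletal muscle markers were between 572 and 770 CPM in controls and between 1908 and 5513 CPM in Cebpa_ASKO. Of these, 9 of 10 were called higher, beside 1.39% of all genes tested. Schwann cell and nerve markers summed to between 132 and 196 CPM and between 246 and 350 CPM. Of these, 1 of 6 was called higher, *S100b* (log2 fold change 3.18, adjusted p = 0.0185 in edgeR's test). The median log2 fold change of that list was 0.32. Mammary epithelium markers summed to between 770 and 1721 CPM in controls and between 2242 and 2370 CPM in Cebpa_ASKO, and smooth muscle and pericyte markers to between 653 and 813 and between 852 and 976 CPM, with 0 of 7 called in either list. Endothelial markers summed to between 386 and 468 CPM and between 285 and 383 CPM. Of these, 2 of 8 were called lower, beside 3.84% of all genes tested. They were *Cldn5* and *Emcn* (adjusted p = 0.0472 and 0.044 in edgeR's test). Lymphocyte markers were high in control replicate 1 alone, at 334 CPM against between 37.1 and 77.0 CPM in the other 5 libraries, with 0 of 6 tested genes called. Of the progenitor and macrophage markers 0 were called, muscle precursor markers summed to at most 0.715 CPM and were not tested, and no marker of the other lists was at 0 in every library. The part of these cells in the values of the imprinted genes was not tested.

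*Peg3* moved together with its neighbour *Zim1*. *Zim1* encodes another zinc finger protein and is read from the maternal copy, the opposite of *Peg3*, in the same imprinted domain (chr7:6671269-6696450, minus strand). *Zim1* had 12.2, 28.6 and 14.7 CPM in Cebpa_fl/fl and 5.58, 7.22 and 5.63 CPM in Cebpa_ASKO, with no overlap. Its log2 fold change was -1.59 (SE 0.334, adjusted p = 0.0458 in edgeR's test), close to the threshold. It was called in 7 of 17 ways of processing, and leaving out control replicate 3 or any 1 Cebpa_ASKO library ended the call (adjusted p from 0.0762 to 0.184), as did scaling by total counts (adjusted p = 0.061). The level of *Zim1* was 12.7%, 13.1% and 15.8% of that of *Peg3* (CPM) in the controls and 16.7%, 19.2% and 15.6% in Cebpa_ASKO.

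Among 12517 genes of sufficient level, *Zim1* had the second most similar profile to *Peg3* over the 6 libraries, by a root mean square difference of 0.20 between centred log2 CPM values. The most similar, at 0.19, was *Ptgfr*, the receptor for prostaglandin F2 alpha (8.05 CPM on average in Cebpa_fl/fl and 2.67 CPM in Cebpa_ASKO, log2 fold change -1.59, adjusted p = 0.0319 in edgeR's test). *Usp29*, a deubiquitinase gene read from the paternal copy on the other strand, starts at position 6730578 of chromosome 7, inside the *Peg3* window printed above. *Usp29* was barely detected, at 0.245, 0.487 and 0.445 CPM in Cebpa_fl/fl and 0.254, 0.179 and 0.337 CPM in Cebpa_ASKO, and its log2 fold change of -0.60 (SE 0.429, adjusted p = 0.508 in edgeR's test) was not called.

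The genes most like the other members in profile are given as a description. For *Nnat* they were *Sncg*, gamma-synuclein (0.08), and *Prelp*, an extracellular matrix protein (0.23). The likeness of *Sncg* was close, with means of 301 and 423 CPM in Cebpa_fl/fl and Cebpa_ASKO beside 330 ± 180 and 442 ± 200 CPM (SD, n = 3) of *Nnat*. For *Plagl1* they were *Podn* (0.14) and *Usp35* (0.15), for *Grb10* *Man2a1* (0.09) and *Slco2b1* (0.09), for *Mest* *Ehd1* (0.09) and *Fcgrt* (0.10), and for *Cdkn1c* *Llgl2* (0.07) and *Neil2* (0.10). None of these 10 genes was called.

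Most other genes beside the imprinted loci did not pass the test. Next to *Mest*, *Copg2*, whose gene overlaps the last 912 bases of *Mest* on the other strand, had a log2 fold change of -0.0047 (SE 0.113) and *Cep41* one of -0.29 (SE 0.159). *Blcap*, around *Nnat*, had 98.8, 107 and 123 CPM in Cebpa_fl/fl and 101, 74.4 and 74.9 CPM in Cebpa_ASKO (log2 fold change -0.39, adjusted p = 0.208 in edgeR's test). *Phactr2* beside *Plagl1* was at 0.08, and *Ddc* and *Cobl* beside *Grb10* were at -0.02 and 0.64, and 0 of these was called. Around *Cdkn1c*, 0 of 7 tested genes was called, with log2 fold changes of -0.20 for *Slc22a18*, -0.05 for *Nap1l4*, -0.01 for *Kcnq1*, 0.0026 for *Cd81*, 0.06 for *Tssc4*, 0.17 for *Ascl2* and 1.06 for *Phlda2*, the last at less than 0.7 CPM in every library.

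The loci of the 2 genes without values can be followed only through their protein-coding neighbours. *Igf2*, the growth factor gene next to *H19* that is read from the paternal copy, had 4.59, 5.53 and 5.40 CPM in Cebpa_fl/fl and 7.54, 7.35 and 7.95 CPM in Cebpa_ASKO. All Cebpa_ASKO libraries were higher, but the log2 fold change of 0.56 (SE 0.145) did not pass edgeR's test (adjusted p = 0.0872). *Mrpl23* (0.30) and *Lsp1* (-0.04) were not called, and *Tnnt3* (2.12, adjusted p = 0.0333 in edgeR's test), which is also one of the skeletal muscle markers above, was called higher. Leaving out control replicate 1 or 3 or Cebpa_ASKO replicate 1 or 2 ended the call of *Tnnt3* (adjusted p from 0.0594 to 0.114). Beside *Meg3*, *Dlk1*, the preadipocyte protein Pref-1, was between 0.254 and 0.561 CPM in all 6 libraries (log2 fold change 0.09, adjusted p = 0.947 in edgeR's test), and *Begain* (0.35) and *Wdr25* (-0.07) were not called either.

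Of 45 further imprinted genes listed, 33 were tested, and 1 was called in each direction, or 1 of 33 beside the shares of 3.84% and 1.39% over all genes. Their median log2 fold change was 0.03. Of these 33 genes, 4 were lower and 4 higher without overlap, beside 13.2% and 12.9% of all genes tested. The gene called lower was *Zim1*. The gene called higher was *Nap1l5*, an intronless gene inside *Herc3* that is read from the paternal copy and encodes a nucleosome assembly protein-like protein. *Nap1l5* had 6.08, 5.28 and 6.02 CPM in Cebpa_fl/fl and 20.3, 20.9 and 9.97 CPM in Cebpa_ASKO, with no overlap, and a log2 fold change of 1.56 (SE 0.288, adjusted p = 0.031 in edgeR's test). Leaving out any 1 library other than Cebpa_ASKO replicate 3 ended the call (adjusted p from 0.0666 to 0.13).

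The imprinted genes often described as a network around *Plagl1* showed no called member, beside 3.84% (lower) and 1.39% (higher) of all genes tested. Of 9 listed, 8 had a positive log2 fold change, as did 8664 of the 16069 genes tested. The median of the 9 was 0.19, beside 0.02 over all genes tested. Among the 8 were *Dcn*, the matrix proteoglycan decorin (0.36), and *Igf2r*, the receptor that clears IGF2 (0.36, SE 0.126, adjusted p = 0.176 in edgeR's test). *Igf2r* had 81.5, 93.4 and 105 CPM in Cebpa_fl/fl and 117, 134 and 110 CPM in Cebpa_ASKO, without overlap. The relatives of *Plagl1*, *Plag1* (-0.57) and *Plagl2* (0.49), were not called. Of the factors that keep imprints methylated, *Dnmt1*, *Dnmt3a*, *Dnmt3b*, *Uhrf1*, *Trim28*, *Zfp57*, *Zfp445* and *Ctcf*, 0 of 8 was called, beside the same shares. Their median log2 fold change was 0.07.

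**Figure D3:**
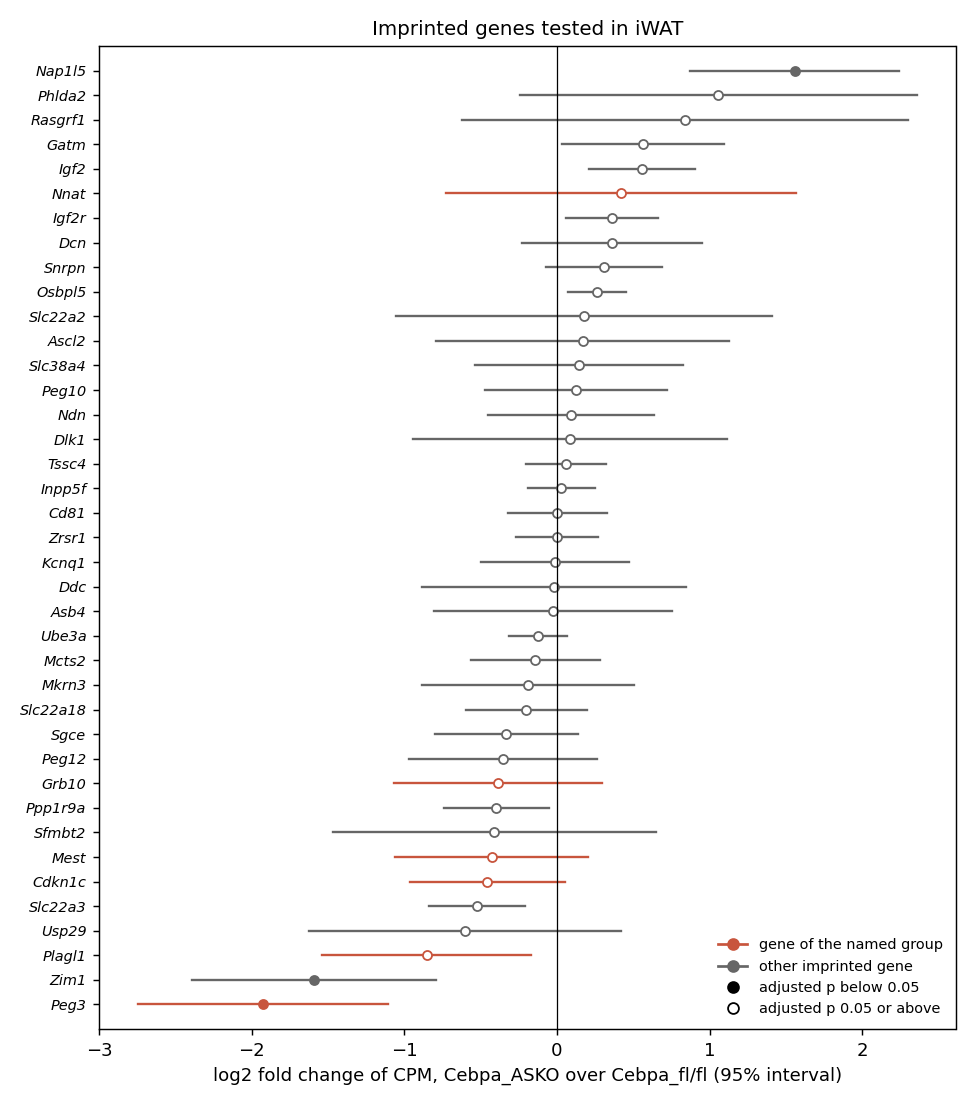
The horizontal axis gives the log2 fold change of CPM, Cebpa_ASKO over Cebpa_fl/fl, with its 95% interval for 39 imprinted genes, members in red and others in grey, filled where the adjusted p was below 0.05. *Peg3* (-1.93) and *Zim1* (-1.59) stand at the lower end and *Nap1l5* (1.56) at the upper end, and none of the other 36 genes was called.

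Transcripts within each gene were described by their share of the gene's summed TPM, as estimated by kallisto, which divides reads among transcripts that overlap. For *Nnat*, the 2 transcripts annotated as retaining an intron (*Nnat-203* and *Nnat-204*) made up 16.7%, 12.6% and 25.4% in Cebpa_fl/fl and 4.73%, 4.35% and 5.45% in Cebpa_ASKO. In CPM they summed to 44.3, 66.2 and 52.4 in Cebpa_fl/fl and to 27.9, 19.6 and 11.6 in Cebpa_ASKO, with no overlap (exact permutation p = 0.1). Summed, the 8 protein-coding transcripts of *Nnat* overlapped between the groups, with 222, 467 and 138 CPM against 588, 466 and 212 CPM. Among them, *Nnat-209* was also lower without overlap, at 2.77, 4.49 and 3.41 CPM in Cebpa_fl/fl and 2.12, 1.27 and 0.243 CPM in Cebpa_ASKO. So was *Nnat-206*, at 0.822, 2.04 and 1.02 CPM in Cebpa_fl/fl and 0.802, 0.177 and 0.318 CPM in Cebpa_ASKO. The other protein-coding transcripts of *Nnat* overlapped. The intron-retaining *Peg3-204* made up 4.99%, 5.75% and 5.18% of *Peg3* in Cebpa_fl/fl and 3.45%, 3.45% and 3.55% in Cebpa_ASKO. As a share of counts instead of TPM, *Peg3-204* made up 2.8%, 3.2% and 2.9% of *Peg3* in Cebpa_fl/fl and 1.9%, 1.9% and 2.0% in Cebpa_ASKO. On that scale the 2 *Nnat* transcripts made up 16.6%, 12.4% and 27.5% in Cebpa_fl/fl and 4.53%, 4.04% and 5.21% in Cebpa_ASKO. Over all genes, intron-retaining transcripts took between 2.84% and 3.04% of counts in Cebpa_fl/fl and between 2.85% and 3.15% in Cebpa_ASKO. Reads of *Blcap* introns could not be told from *Nnat*, since strandedness is not given in the sources used here.

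The alternative starts of *Grb10* and *Mest* also varied. Most of *Grb10* came from *Grb10-201*, whose start is at position 12037401 of chromosome 11, with between 89.5% and 95.9% in Cebpa_fl/fl and between 79.8% and 87.6% in Cebpa_ASKO. *Grb10-203*, which starts downstream at position 12027971, made up 2.36%, 6.87% and 1.98% in Cebpa_fl/fl and 17.0%, 11.1% and 8.84% in Cebpa_ASKO, without overlap, but its TPM overlapped between the groups and was at most 2.81 in any library. The RefSeq window of the upstream start of *Grb10* holds 45 CG pairs and that of the downstream start 9, beside a median of 7 over all windows. For *Mest*, *Mest-210*, which begins at the upstream start printed above, made up 0%, 1.48% and 0% in Cebpa_fl/fl and 39.4%, 54.0% and 0% in Cebpa_ASKO. With 155, 139 and 252 counts for the whole of *Mest* in the Cebpa_ASKO libraries, the replicates of that group did not share a pattern.

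**Figure D4:**
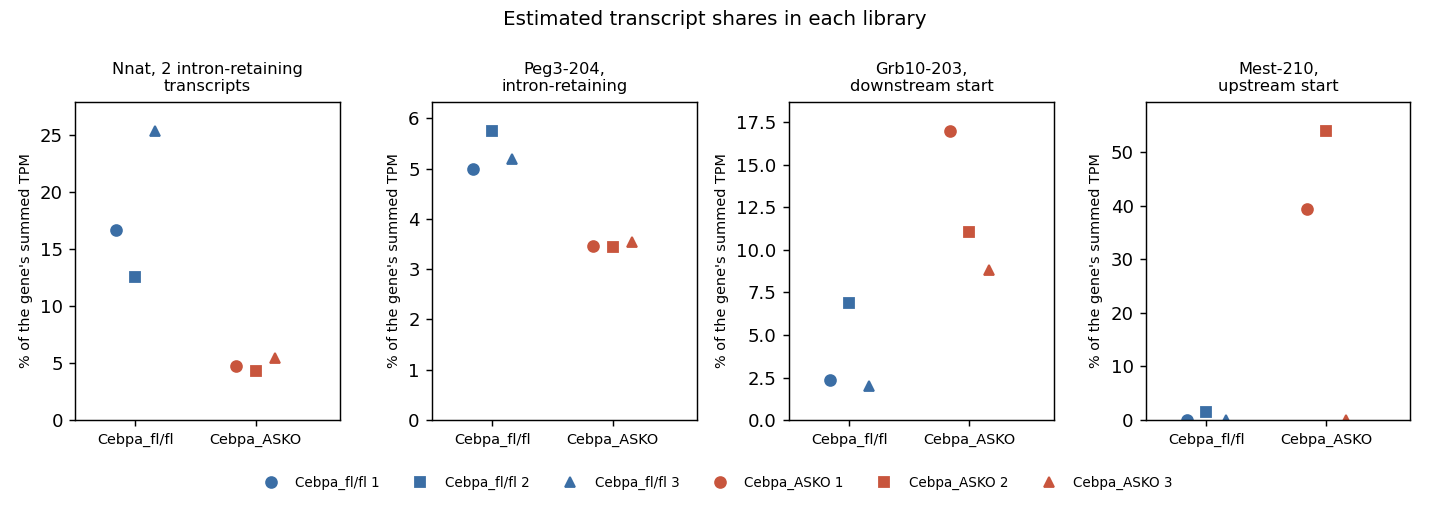
Each panel plots, for every library, the percentage of a gene's summed TPM that kallisto gave to the transcripts named above it, from 0 upwards. Shares of the intron-retaining transcripts of *Nnat* and *Peg3* are lower and that of *Grb10-203* higher in all 3 Cebpa_ASKO libraries, while *Mest-210* is seen in 2 of the 3.

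Some genes of 2 lists set beside *Grb10* and *Cdkn1c*, of insulin receptor signalling and of cyclins, kinases and their inhibitors, passed the test. In a list of 11 tested genes of insulin receptor signalling, *Insr*, the insulin receptor, fell from 107, 110 and 132 CPM to 58.3, 59.8 and 64.7 CPM (log2 fold change -0.93, SE 0.108, adjusted p = 0.00516 in edgeR's test), and was called in 16 of 17 ways of processing. *Grb14*, the adaptor most closely related to *Grb10*, rose from 9.62, 6.61 and 7.33 CPM to 34.9, 28.0 and 14.8 CPM (log2 fold change 1.72, SE 0.323, adjusted p = 0.0329 in edgeR's test). Leaving out any 1 library other than Cebpa_ASKO replicate 3 ended the call of *Grb14* (adjusted p from 0.0691 to 0.122). The other 9, among them *Igf1r*, *Irs1* and *Mtor*, were not called. This made 1 of 11 called lower and 1 called higher, beside 3.84% and 1.39% of all genes tested.

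Of 12 tested cyclin, kinase and kinase inhibitor genes, 1 was called higher and 3 lower, beside 1.39% and 3.84% of all genes tested. *Cdkn2c*, the kinase inhibitor p18, fell from 165, 160 and 181 CPM to 53.2, 40.5 and 51.9 CPM (log2 fold change -1.80, SE 0.13, adjusted p = 0.000969 in edgeR's test) and was called in all 17 ways of processing. *Ccnd2*, cyclin D2, fell from 163, 233 and 183 CPM to 51.4, 44.8 and 81.8 CPM (-1.70, adjusted p = 0.0144 in edgeR's test), a call lost without Cebpa_ASKO replicate 1 or 2 (adjusted p = 0.088 and 0.0597). *Ccnd3*, cyclin D3, fell by 0.66 on the log2 scale (adjusted p = 0.0291 in edgeR's test) and *Cdkn1a*, the kinase inhibitor p21, rose by 0.50 (adjusted p = 0.038). *Cdkn1a* was not called with any 1 library left out (adjusted p from 0.0671 to 0.114), and with 1 library left out *Ccnd3* was called only without control replicate 2 or without Cebpa_ASKO replicate 3 (otherwise adjusted p from 0.0554 to 0.137). The p27 gene *Cdkn1b*, the nearest relative of *Cdkn1c*, was at 0.12 (SE 0.0711) and not called.

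**Figure D5:**
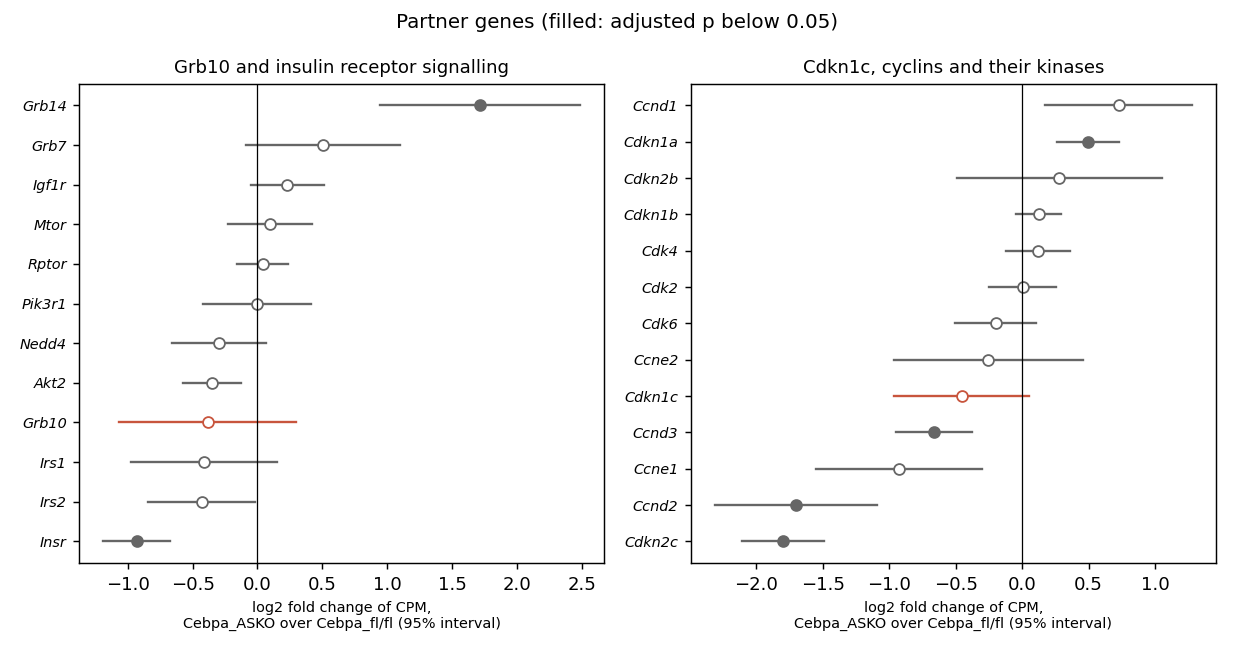
The horizontal axes give the log2 fold change of CPM, Cebpa_ASKO over Cebpa_fl/fl, with its 95% interval, for *Grb10* with genes of insulin receptor signalling and for *Cdkn1c* with cyclin, kinase and inhibitor genes, filled where the adjusted p was below 0.05. *Grb10* and *Cdkn1c* (red) have intervals that include 0, unlike *Insr* (-0.93), *Grb14* (1.72) and *Cdkn2c* (-1.80).

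Of 7 genes that have been tied, with *Mest*, to variable fat expansion in mice, 2 were called lower, beside 3.84% of all genes tested. All 7 had a negative log2 fold change, as did 7405 of the 16069 genes tested, and their median was -0.70. *Cav1*, the main caveola protein, fell from 854, 1076 and 987 CPM to 509, 442 and 389 CPM (log2 fold change -1.12, adjusted p = 0.011 in edgeR's test), and *Cav2* fell by 0.96 on the log2 scale (adjusted p = 0.0265). The call was lost without Cebpa_ASKO replicate 2 for *Cav1* (adjusted p = 0.063), and without control replicate 3 or Cebpa_ASKO replicate 1 or 2 for *Cav2* (adjusted p from 0.0714 to 0.0853). *Bmp3*, a secreted BMP family member, had 13.0, 25.8 and 12.7 CPM in Cebpa_fl/fl and 4.06, 8.45 and 3.66 CPM in Cebpa_ASKO and did not pass the test (-1.67, adjusted p = 0.0821 in edgeR's test), and *Sfrp5* (-0.05), *Npr3* (-0.70), *Lep* (-0.43) and *Cavin1* (-0.35) did not either. Control replicate 2 was the highest of the 6 libraries for all 7 of these genes, against 20.4% of all genes tested.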

How the data were processed

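Per the labels, polyadenylated RNA of whole iWAT was sequenced. Per the submitters' processing notes, the authors quantified transcripts with kallisto 0.44.0, and the builds named there are GRCm38.p6 and GRCh38.p12; the annotation release is not given in the sources used here. The authors deposited estimated counts, not normalized, and TPM, a share per length, for each transcript, and gene TPM.

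Estimated counts were summed per symbol with GENCODE M21, which matched 99.5% to 99.6% of each library, and rounded. Cebpa_ASKO was compared with Cebpa_fl/fl with edgeR 4.0.16 in R 4.3.3 (quasi-likelihood test, TMM, default low-count filter, Benjamini-Hochberg adjustment over 16069 genes, called at adjusted p below 0.05). This called 840 genes. Permutation tests were exact and two-sided over 20 arrangements. The alternatives included DESeq2 1.42.0, limma 3.58.1 on log2(TPM + 1) and log2(TPM + 0.1), other scalings and filters, and each library left out. A pseudocount understates changes of low genes. Samples are separate mice.

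The members, lists and marker genes were chosen with earlier results of these data known. Named were all members, the called genes of each list that had at most 6 of them, and each tested neighbour. Also named were the 2 most similar profiles among genes averaging 1 or more on the log2 CPM scale. Sequences are from RefSeq. The procedure was tested on simulated data. Intervals and detection limits cover these libraries and counting error only.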

Additional observations from a re-analysis of the deposited data

How the results depend on the processing

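The count of genes called, 840 here, was 1796 with DESeq2, 359 with limma on log2(TPM + 1) without a filter, 370 with the replicate block, and between 311 and 922 with 1 library left out. Members called, 1 here, were 2 with DESeq2, 0 with limma without a filter and with the block, and 0 to 1 with 1 library left out. Other imprinted genes called, 2 here, were 4 with DESeq2, 1 with scaling by total counts, with a length offset and with limma at either pseudocount, 0 with limma without a filter and with the block, and 0 to 2 with 1 library left out. *Peg3* kept its direction, at -1.59 with limma without a filter (adjusted p = 0.135), -1.81 with the block (adjusted p = 0.0591) and between -2.14 and -1.42 with 1 library left out. *Plagl1* was called only with DESeq2 (-0.87). *Grb10* turned to 0.0178 without control replicate 2, in a range from -0.56 to 0.0178. The causes of these changes were not tested, and fits with 1 library left out also had fewer libraries. Of 96 alternatives over the 6 members, 89 kept direction and side of the threshold.

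Same-numbered libraries of the 2 groups correlated at 0.0662, 0.0278 and -0.201 in their deviations, so the numbers were not taken as pairs, and control replicate 3 correlated best with Cebpa_ASKO replicate 2 (0.152). Depth limits the values of genes with few counts, such as *Usp29*, *Dlk1* and *Phlda2*.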
